A study of Bos taurus with 2 samples.

Results

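Shores are the stretches of DNA that flank CpG-dense regions. In the data on bone they were taken as 1 kb windows of chromosomes 1 to 29 that held 1 to 19 CpG sites, had at least 20 methylation calls in each sample and lay directly beside a window with 60 or more CpG sites, here called a dense window. Of 11617 windows that met the conditions on CpG sites, 385 had too few calls and 11232 remained, which is 0.537% of the 2090238 autosomal windows with enough calls. They held 140593 CpG sites, with a median of 13 per shore. For comparison, 1674279 windows of 1 to 19 CpG sites that lay more than 10 kb from any dense window were used, here called far windows, and they were weighted so that their numbers of CpG sites matched those of the shores.

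The study predicted histone marks of cattle from human data and compared them, among others, with DNA methylation measured in cattle tissues. The samples described here are 2 bone samples, Bone_1 and Bone_2, labelled as female Holstein cattle, a dairy breed, with no treatment and no age given. Methylation was measured by whole-genome bisulfite sequencing (WGBS), which chemically converts cytosines without a methyl group, so that a read across a CpG site shows whether that cytosine was methylated (a call). The labels do not tell whether the samples came from 1 animal or 2, so each SD below is the spread between 2 libraries, which may be technical. The tissue label could not be checked at bone genes, because the annotation at hand is of another genome build than the counts.

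In mammalian DNA, methyl groups sit mainly on the cytosine of CpG sites, and most CpG sites in body tissues are methylated. CpG islands, the dense clusters of such sites at many gene starts, are the known exception and are mostly kept free of methylation. Methylation rises again in the shores beside them, and shores are known as places where methylation differs between tissues and cell types.

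A methylation level here is the number of methylated calls over all calls, in percent. Summed over the autosomes it was 72.4% in Bone_1 from 445684877 calls and 58.98% in Bone_2 from 389385549 calls, so Bone_2 was lower from the outset. The 21394 dense windows formed 15986 unbroken runs, of which 11969 were a single window. A shore lay on both sides of 2332 runs (14.6%) and on 1 side of 6613, while 7041 runs had none. Most windows beside dense ones were denser themselves: 19635 of the 31252 adjacent windows that were not dense held 20 to 59 CpG sites and are not shores by this rule.

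The counts give the base on each side of every CpG site, and the rule for shores does not use these short sequences directly. They are not independent of it, since the cluster of the dense window can reach into the shore. Its part in the shares below was not tested. Capitals mark the CpG, and the strands were merged, so that each line stands for its reverse complement too. The 3 contexts with the highest ratio of their share in shores to that in far windows, and the 2 with the lowest, were:
more frequent in shores: cCGc
more frequent in shores: gCGc
more frequent in shores: cCGg
less frequent in shores: aCGa
less frequent in shores: gCGa
Sites in cCGc made up 13.7% of CpG sites in shores and 10.5% in far windows. Those in cCGg made up 7.93% against 6.26%, and those in gCGc 4.53% against 3.44%. In contrast, aCGa made up 12.5% against 14.7%, and gCGa 11.2% against 13.1%. The contexts with C or G on both sides and no A or T were thus richer in shores, while cCGa was equal at 13.1% in both.

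The lower methylation of shores was seen in all 10 contexts. Sites in aCGt had the lowest level in shores, 52.9% in Bone_1 and 38.8% in Bone_2, against 73.5% and 55.5% in far windows. Sites in gCGa had the highest level in Bone_1, 66.0%, and in Bone_2, 53.3%, against 83.3% and 66.8% in far windows. The difference of shores from far windows ranged from -16.4 percentage points (tCGa) to -22.2 (cCGg) in Bone_1, and from -13.2 (tCGa) to -17.4 (cCGg) in Bone_2. In both samples aCGt and aCGa were the lowest contexts, and cCGc, gCGc and gCGa the highest, in shores as in far windows, so no single context carried the difference.

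Shores were less methylated than far windows of equal CpG number in both samples, and their levels were far more spread out. The mean level of a shore was 59.1% in Bone_1 and 48.4% in Bone_2 (53.8% ± 7.53, SD, n = 2). Far windows averaged 78.3% and 61.2%. The difference was -19.2 percentage points in Bone_1 and -12.8 in Bone_2 (mean -16.0 ± 4.51, SD, n = 2). Both samples thus showed the same direction. With 2 samples the exact two-sided permutation test cannot give a p under 0.5, so no p-value is given for it, and windows were not used as replicates.

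Individual shores ranged from 0% to 100% in Bone_1 and from 0% to 94.1% in Bone_2. In Bone_1 the middle 50% of shores lay between 38.7% and 81.8%, around a median of 67.2%, and the SD over windows was 27.1 points against 12.5 in far windows. In Bone_2 it lay between 34.0% and 64.2%, around a median of 52.2%, with an SD of 20.4 against 11.8. Levels under 20% were found in 1477 shores (13.1%) in Bone_1 and in 1352 (12.04%) in Bone_2, a mean of 12.6% ± 0.787 (SD, n = 2), against 0.395% and 0.422% of far windows of equal CpG number. That share depends on where the line is drawn, since it was 5.85% under a level of 10% and 20.1% under 30%. At the other end, levels over 80% were found in 28.4% of shores and 52.1% of far windows in Bone_1, and in 2.54% and 4.17% in Bone_2. Of all shores, 2283 (20.3%) were above the median of the far windows in both samples, which in Bone_1 was 80.6%. By definition about 50% of far windows lie above it in each sample, and their share in both was not counted.

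**Figure D1:**
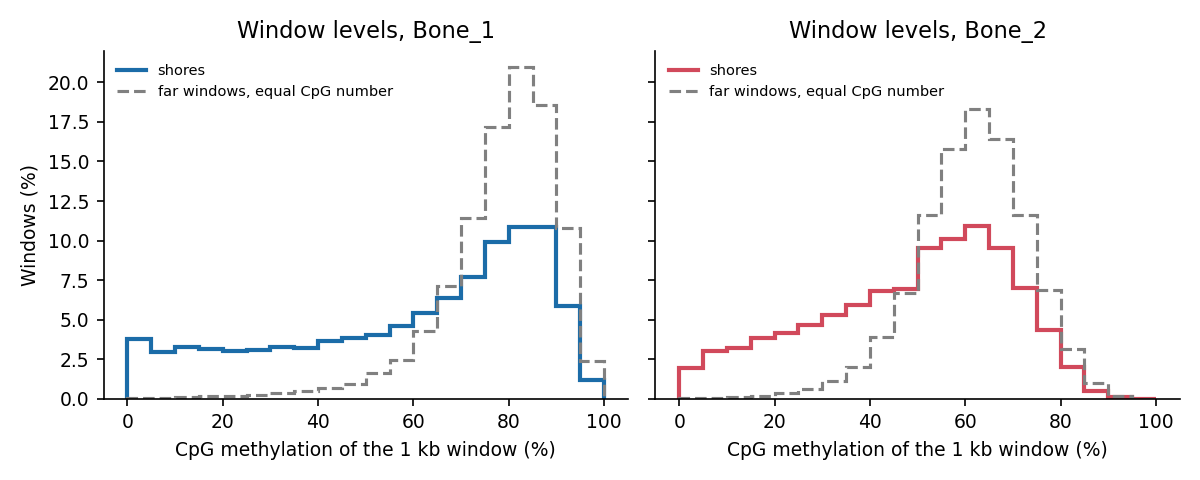
Share of windows (%) in each 5-point step of CpG methylation (%), for shores (solid) and far windows weighted to equal CpG number (dashed), in Bone_1 (left) and Bone_2 (right). The far windows form a single peak, while the shores reach down to 0%, with 13.1% and 12.04% of them under 20%.

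From 5 CpG sites upward, shores with more sites tended to be lower, while far windows rose to about 14 sites and then held level. Shores with 5 CpG sites averaged 65.4% and 51.9% in Bone_1 and Bone_2, against 74.8% and 57.9% in far windows. Shores with 19 CpG sites averaged 53.6% and 45.1%, against 78.9% and 61.9%. The few shores with under 5 sites did not follow this order: the 84 with 3 sites averaged 67.3% and 56.2%, against 72.8% and 56.1% in far windows, and the 168 with 4 sites 61.3% and 50.6%, against 73.9% and 57.1%. Across the upper limit of the rule there was no step: windows with 18 CpG sites averaged 56.5% and 46.1%, those with 20 averaged 51.9% and 43.6%, and those with 21 averaged 51.7% and 43.2%. Adjacent windows with 20 to 39 CpG sites were lower still, at 48.0% and 40.7% (11437 windows) against 77.0% and 60.8% in far windows of that density. The same holds for the limit that defines dense windows. Windows whose densest neighbour held 60 or 61 CpG sites averaged 67.7% and 65.1% in Bone_1, and those whose neighbour held 58 or 59 averaged 66.7% and 68.5%. In Bone_2 these levels were 54.0% and 53.1% inside the limit and 53.6% and 54.9% outside it.

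On every autosome the shores were lower than the far windows in both samples, 29 of 29. The difference in Bone_1 ran from -24.0 points on chromosome 1 to -9.52 on chromosome 27, and in Bone_2 from -17.0 to -5.19 on the same chromosomes. Shores averaged 54.7% on chromosome 1 and 67.5% on chromosome 27 in Bone_1, against 78.8% and 77.0% in the far windows of these chromosomes, so most of the spread lay in the shores. Shores were most crowded on chromosome 19, with 668 shores or 10.5 per Mb, and sparsest on chromosome 20, with 2.47 per Mb, around a median of 4.35.

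**Figure D2:**
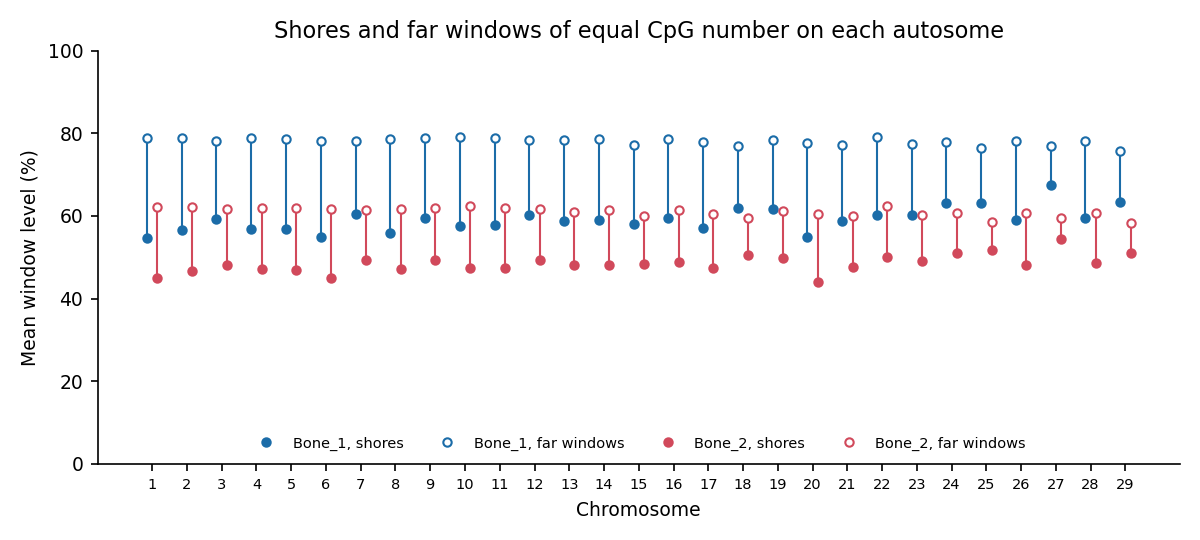
Mean window level (%) of shores (filled) and of far windows of equal CpG number (open) on chromosomes 1 to 29, in Bone_1 (blue) and Bone_2 (red), with a line joining each pair. The filled points lie below the open ones on 29 of 29 chromosomes in both samples, and the shortest lines are those of chromosome 27.

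Shores close to the high-coordinate end of a chromosome were more methylated than the others. The last 2 Mb of the chromosomes held 518 shores, 4.61% of all shores but 0.927% of the far windows. These shores averaged 72.0% in Bone_1 and 58.1% in Bone_2, against 77.9% and 60.9% in far windows there. The 294 shores in the first 2 Mb averaged 63.0% and 50.4%, and the 10420 in between 58.3% and 47.9%. The difference from far windows was thus smallest in the last 2 Mb, where shores were also most frequent relative to far windows.

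Low methylation was largely limited to the first window beside a dense one. The second window out, at equal CpG number, averaged 75.4% in Bone_1 and 60.4% in Bone_2 (18532 windows), which is -2.90 and -0.861 points from the far level. The third window averaged 77.9% and 61.9%. From the fourth window on, levels lay slightly above those of far windows in both samples, and in the tenth they were 79.8% and 63.5%, or 1.57 and 2.28 points above. The share of windows under 20% fell in the same way, from 13.1% and 12.04% in shores to 2.71% and 2.90% in the second window.

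**Figure D3:**
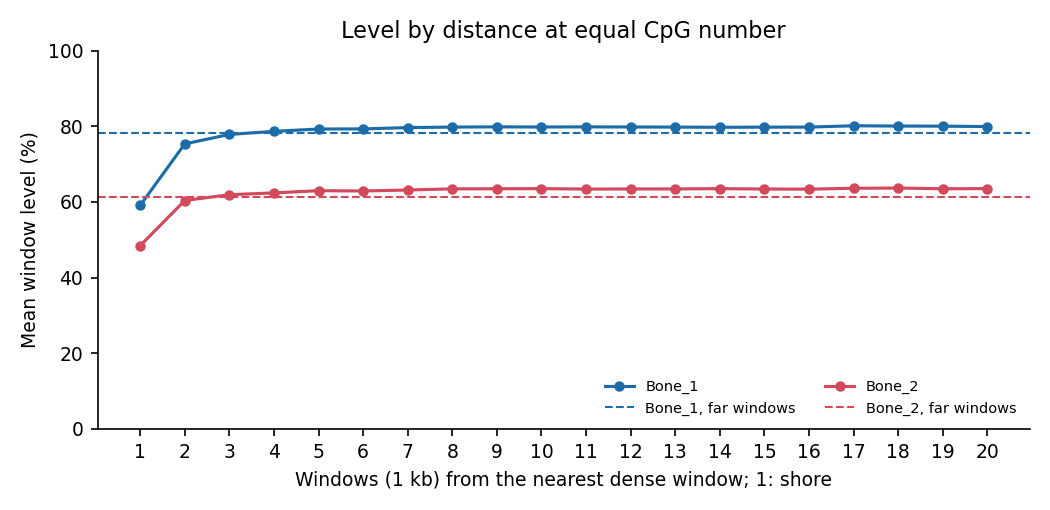
Mean window level (%) by the number of 1 kb windows from the nearest dense window, at equal CpG number, in Bone_1 (blue) and Bone_2 (red), with the level of far windows as dashed lines. Levels rise from 59.1% and 48.4% in the shore to 75.4% and 60.4% in the next window and 79.8% and 63.5% in the tenth, and end at 79.95% and 63.5% in window 20.

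Averaged over shores, methylation climbed over less than 1 kb from the edge of the dense window. This edge is a line of the fixed 1 kb grid, not the border of the CpG cluster. The distances below are thus not distances from that border, and the averaged rise need not be that of a single shore. Single CpG sites were grouped in steps of 100 bp from the edge of the dense window, over the 11187 shores with a dense window on 1 side. In the last 100 bp of the dense window the level was 29.6% in Bone_1 and 22.2% in Bone_2. It was 36.8% and 27.5% in the first 100 bp of the shore, 55.2% and 40.9% at 200 to 300 bp, and 68.7% and 51.3% at 400 to 500 bp. At 900 to 1000 bp it had reached 77.0% and 60.8%. The midpoint between the inside of the dense windows and the level at 1 to 2 kb was passed at 100 to 200 bp in Bone_1. In Bone_2 it was passed at 200 to 300 bp. From 500 bp in Bone_1 and from 700 bp in Bone_2, 95% of the outer level was reached. Beside only the dense windows under 20% in both samples, the midpoint was passed at 200 to 300 bp in both. There 95% was reached from 600 bp in Bone_1 and from 700 bp in Bone_2. Farther out the pooled single sites fell again, to 69.1% and 58.4% at 3 to 4 kb. Unlike the windows of equal CpG number, these sites were taken at any CpG density, other dense windows included. CpG sites themselves thinned out over the same distance, from 2.28 sites per shore in the first 100 bp to 0.956 in the last.

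Most of the low methylation of shores was found in the 500 bp next to the dense window. Of 9275 shores with at least 10 calls on each side of their middle in both samples, this inner side averaged 53.1% in Bone_1 and 43.1% in Bone_2, and the outer 500 bp 72.8% and 58.7%. The inner side was lower in both samples in 5914 of these shores (63.8%) and higher in both in 1510 (16.3%), while the samples differed in 1851. A step of at least 40 points in both samples was found in 1310 of the 9275. Sides with as few as 10 calls carry wide counting error, and no such count is given for far windows. The outer 500 bp of these 9275 shores thus had a mean level of 65.7%, which was -4.01 points ± 2.06 (SD, n = 2) from far windows weighted to the CpG numbers of all whole shores.

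**Figure D4:**
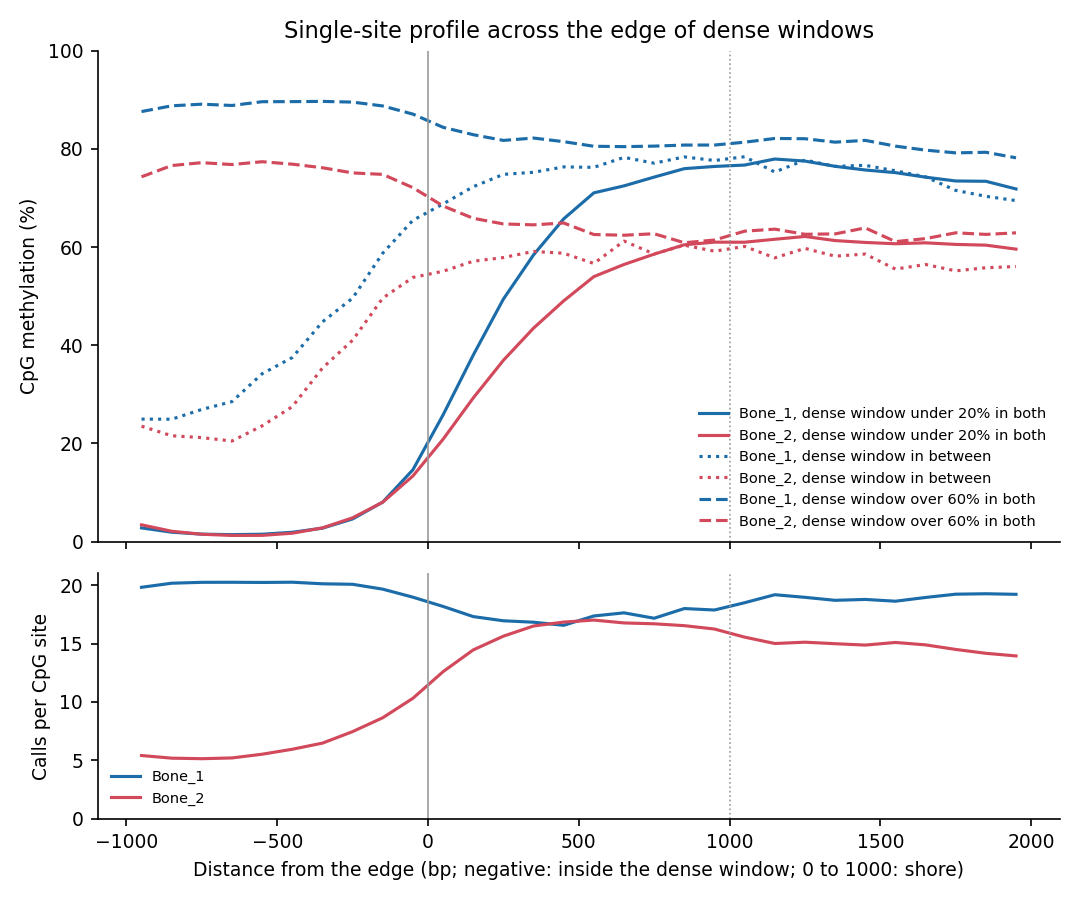
Upper panel: methylation (%) of single CpG sites in 100 bp steps from the edge of the dense window (negative distances lie inside it, 0 to 1000 bp is the shore), in Bone_1 (blue) and Bone_2 (red), for dense windows under 20% in both samples (solid), over 60% in both (dashed) or in between (dotted). Lower panel: calls per CpG site over all these shores. The solid lines rise from under 5% inside the dense window to over 60%, the dashed lines fall outward from 89.6% and 77.4% at 500 to 600 bp inside the dense window to 78.2% and 62.9% at 1900 to 2000 bp outside it, and over the inner 500 bp of the shore the depth of Bone_2 falls toward the dense window while that of Bone_1 rises.

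The level ran in opposite directions with local CpG density at the inner and outer side of the shore. Sites were not matched for their distance from the edge, along which CpG sites also thinned out. Far windows were not weighted in this comparison, and held a median of 8 CpG sites against 13 in shores. Among sites with 6 or more other CpG sites within 100 bp, those in the 500 bp next to the dense window had a level of 38.1% in Bone_1 and 27.7% in Bone_2. Sites of that local density had 80.5% and 66.1% in the outer 500 bp and 82.7% and 67.2% in far windows. Crowded sites were thus the most methylated of all in far windows and the least methylated beside dense windows. Isolated sites, with no other CpG site within 100 bp, differed less, with 64.0% and 48.0% on the inner side, 72.4% and 56.1% on the outer side, and 73.9% and 57.1% in far windows. Crowded sites made up 26.3% of sites on the inner side, 7.60% on the outer side and 7.97% in far windows. Since windows lie on a fixed grid, a dense cluster can cross the edge into the shore, and its tail then counts as shore.

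Low shores lay beside unmethylated dense windows. The dense neighbour was under 20% in both samples for 9020 of the shores with 1 dense neighbour, over 60% in both for 935, and in between or split for 1220, while 12 had a neighbour with too few calls. Only the first kind is what is usually meant by the shore of an unmethylated CpG island. Beside dense windows under 20%, which themselves averaged 3.26% in Bone_1 and 3.96% in Bone_2, shores averaged 54.7% and 45.3%. Beside dense windows over 60%, which averaged 88.8% and 76.0%, shores averaged 81.6% and 64.6%, above the far windows of equal CpG number at 78.5% and 61.5%. The remaining shores lay between, at 74.4% and 59.3%. Shores beside methylated dense windows thus exceeded those beside unmethylated ones by 23.1 points ± 5.39 (SD, n = 2).

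The share of low shores followed the same split. Of the 1048 shores with 1 dense neighbour that were under 20% in both samples, 1033 lay beside a dense window under 20% in both and 0 beside one over 60% in both. In the single-site profile the methylated dense windows had 84.4% in Bone_1 and 68.4% in Bone_2 in the first 100 bp outside, and 80.8% and 61.4% at 900 to 1000 bp, a decline outward. Beside unmethylated dense windows the levels were 25.8% and 20.9% in the first 100 bp and 76.4% and 61.01% at 900 to 1000 bp. Across shores, the level of the shore and that of its dense neighbour had a Spearman correlation of 0.473 in Bone_1 and 0.499 in Bone_2, given as a description only, because both windows come from the same libraries and reads can span their edge.

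Among shores of unmethylated dense windows, the level fell with the CpG number of the dense window. Beside dense windows of 60 to 69 CpG sites, shores averaged 58.3% in Bone_1 and 48.1% in Bone_2 (2749 shores). The averages were 56.6% and 46.4% for 70 to 79, 52.9% and 43.9% for 80 to 99, and 48.6% and 41.3% for 100 or more CpG sites (1544 shores). The order was the same in both samples, although the mean CpG number of the shores also rose, from 11.8 to 13.6. By the CpG number of the shore itself, shores with 1 to 4 sites averaged 60.3% and 50.1%, and those with 15 to 19 averaged 49.9% and 41.8%. The length of the dense run gave no steady order: shores of single unmethylated dense windows averaged 54.2% and 45.3% (6253 shores), those of runs of 2 averaged 56.3% and 45.9% (2371 shores) and those of runs of 3 or more 52.7% and 42.5% (396 shores). Over all 11187 shores with 1 dense neighbour, whatever its methylation, the 5658 on the higher-coordinate side averaged 59.1% and 48.6%, and the 5529 on the lower-coordinate side 59.1% and 48.3%.

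The 2 shores of a single dense run were only loosely alike. Over the 2332 runs with a shore on both sides, Pearson's r between the sides was 0.150 in Bone_1 and 0.118 in Bone_2, over windows that share their libraries. The median absolute difference between the sides was 21.6 points in Bone_1 and 17.97 in Bone_2. In 514 runs 1 side was under 20% and the other was not in Bone_1 (466 in Bone_2), while both sides were under 20% in 73 runs (59 in Bone_2). Which side was lower was shared by the samples: of 633 runs whose sides were at least 40 points apart in Bone_1, 629 had the same side lower in Bone_2. A position of the dense cluster off the centre of its windows would also put more of it on 1 side, and its part in this asymmetry was not tested.

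Beyond a low shore, methylation mostly returned within the next window. Among shores under 20% in both samples, 815 had a next window outward with 1 to 19 CpG sites and enough calls, and these windows averaged 66.2% in Bone_1 and 54.4% in Bone_2. They were under 20% in both samples in 51 cases (6.26%). Beyond the other shores the next window averaged 78.4% and 62.7% (8123 windows), and 43 (0.529%) were under 20% in both.

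Single shores show these patterns at the level of CpG sites. Positions are those of the deposited counts, for which the submitters' processing notes name the cattle assembly ARS-UCD1.2, and intervals are 95% Wilson intervals that cover counting error only. The level allowed after a count of 0 is not a Wilson bound but 3 calls over all calls. The shores named for their level are the 5 lowest and the 5 highest with at least 10 CpG sites and 100 calls in each sample, with no gene assigned to them.

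Among the lowest, the shore at chromosome 4, positions 76690001 to 76691000, had 0 methylated of 191 calls in Bone_1, which allows a level of up to 1.57%, and 1 of 449 calls in Bone_2. Its 15 CpG sites reached from 3 to 691 bp off the edge, so the unmethylated state of the dense window, which held 111 CpG sites at 0.578% and 0.566%, ran on through most of the shore. In the next window the level was 66.7% of 9 calls and 44.9% of 78 calls. The shore at chromosome 19, positions 40419001 to 40420000, had 2 methylated of 825 calls in Bone_1 and 0 of 129 in Bone_2, which allows up to 2.33%, and the next window was still low in Bone_1, at 5.38% of 186 calls, but not in Bone_2, at 30.5% of 95 calls. On chromosome 21, the shore at positions 33255001 to 33256000, had 0 of 231 calls in Bone_1 and 1 of 186 in Bone_2, next to a window at 69.1% and 63.3%. On chromosome 8, the shore at positions 103784001 to 103785000, had 0 of 112 and 1 of 209 calls, with 58.7% and 62.3% in the window beyond. At chromosome 1, positions 22095001 to 22096000, where 0 of 356 and 1 of 254 calls were methylated, the next window was also low, at 0 of 19 calls and 10% of 110 calls, and the one after it reached 31.7% and 31.6%.

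Of the highest 5, 2 stood beside a weakly methylated dense window. The shore at chromosome 12, positions 21605001 to 21606000, had 96.1% in Bone_1 (interval 92.9% to 97.9%, 255 calls) and 88.6% in Bone_2 (83.7% to 92.1%, 219 calls). Its dense neighbour of 65 CpG sites had 1.49% and 3.78%. The first CpG site of this shore lay 608 bp from the edge, in the context aCGt, and had 75% of 8 calls and 74.0% of 50 calls. The other 9 sites, from 803 bp outward, lay between 89.5% and 100% in Bone_1 and between 85.0% and 100% in Bone_2. On chromosome 10, the shore at positions 101993001 to 101994000, had 95.5% and 89.7% beside a dense window at 11.8% and 10.1%. Its 17 CpG sites began 6 bp from the edge, where a site in cCGc had 25 of 28 methylated calls in Bone_1 and 15 of 16 in Bone_2. High shores thus occurred beside such dense windows both with and without CpG sites near the edge. The other 3 highest, on chromosomes 5 (25247001 to 25248000), 22 (7661001 to 7662000) and 4 (114602001 to 114603000), stood beside dense windows that were methylated themselves, from 88.3% to 96.7% in Bone_1 and from 79.3% to 95.1% in Bone_2.

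Low shores were largely shared between the samples, while the level was lower in Bone_2. Of the shores under 20%, 1055 were so in both, which is 71.4% of those in Bone_1 and 78.0% of those in Bone_2. Over the 11232 shores, levels in the samples had a Pearson's r of 0.886 and a Spearman's rho of 0.866, given as a description over windows of the same libraries. Bone_2 was lower by 10.6 points on average in shores and by 17.0 in far windows. In points, the gap shrank toward the dense window, from 17.6 at 500 to 600 bp off the edge to 9.29 in the first 100 bp. The levels themselves fell over that stretch, from 72.6% to 36.8% in Bone_1 and from 54.9% to 27.5% in Bone_2. For shores, the gap was 9.38 points beside dense windows under 20%, 15.1 beside those in between and 17.0 beside those over 60%. In total 8847 shores (78.8%) were lower in Bone_2 by summed calls, against 95.9% of far windows of equal CpG number. With each CpG site given equal weight the shares were closer, at 88.1% of shores and 95.8% of far windows.

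Each window was then compared between the samples with Fisher's exact test (two-sided) on its methylated and unmethylated calls, and with Benjamini-Hochberg adjustment over all 2090238 windows. The test compares 2 libraries, not conditions, and treats calls as independent. At an adjusted p under 0.05 it called 6538 shores (58.2%), where the share over all windows tested was 66.2% and that over far windows of equal CpG number 75.6%. Bone_1 was the higher in 5764 of them (51.3% of shores), against 65.2% of all windows, and Bone_2 in 774 (6.89%), against 1.01%. With a difference of at least 20 points asked for as well, 2901 shores (25.8%) were called, against 36.0% of all windows, and 174 of them (1.55%) were higher in Bone_2, against 0.258%. Because the libraries differed nearly everywhere, windows were also tested against the odds ratio of all windows tested, 1.81. In that test 3387 shores (30.2%) were called, against 21.7% of all windows, with 1422 (12.7%) above this odds ratio, against 17.9%, and 1965 (17.5%) below it, against 3.79%. Among far windows of equal CpG number the shares were 26.2% in all, 22.9% above and 3.23% below. This test also used summed calls, whose weighting is described next, and was not repeated by CpG site.

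Many of the shores called higher in Bone_2 changed with the way calls were summed. Depth ran in opposite directions along the inner part of the shore: at 0 to 100 bp there were 18.2 calls per CpG site in Bone_1 and 12.6 in Bone_2, at 400 to 500 bp 16.6 and 16.8, and inside dense windows 21.7 and 6.05. A sum over a shore therefore gave more weight to the low inner sites in Bone_1 than in Bone_2. When the test was stratified by CpG site (Mantel-Haenszel, with the same adjustment), 6266 shores (55.8%) were called, against 65.4% of all windows, and 6163 of them (54.9%) were higher in Bone_1, against 65.0%. The shores called higher in Bone_2 dropped to 103 (0.917%), against 0.421% of all windows. Of the 774, the stratified test called 81 higher in Bone_2 and 76 higher in Bone_1. Their median level was 15% in Bone_1 and 31.8% in Bone_2 by summed calls, and 25.5% and 25.02% with each CpG site weighted equally. Of these 774 shores, 738 lay beside dense windows under 20% in both samples, a class that held 80.6% of the shores with 1 dense neighbour. They were 8.18% of that class, against 0.963% beside dense windows over 60% (9 of 935) and 2.13% of those in between (26 of 1220). With equal site weights 88.1% of all shores were lower in Bone_2, against 95.8% of far windows. The mean levels of shores were then 58.9% in Bone_1 and 47.3% in Bone_2, close to those by summed calls. Far windows averaged 77.9% and 61.3% with these weights.

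The 5 shores with the largest difference among those called with at least 5 CpG sites were all higher in Bone_1. The shore at chromosome 14, positions 55053001 to 55054000, had 83.6% in Bone_1 (interval 78.0% to 87.9%, 213 calls) and 23.3% in Bone_2 (16.7% to 31.7%, 120 calls), with an adjusted p of 2.63e-25 by Fisher's exact test. That value also holds the shift seen between the libraries in most windows. The exact test against the odds ratio of all windows gave an adjusted p of 1.02e-14. All 17 of its CpG sites were higher in Bone_1. The site nearest the edge, in the context cCGc at position 55053977, had 18 of 25 methylated calls in Bone_1 and 0 of 6 in Bone_2, and the outermost, in cCGg at 55053012, had 25 of 28 and 7 of 9. With equal weights the level was 85.0% and 20.8%. The dense neighbour of 72 CpG sites had 6.21% and 1.98%, and the next window outward 73.9% and 61.9%. On the other flank of the dense window, the first window had 77.6% and 66.2%, the second 90.9% of 77 calls and 31.8% of 85 calls, and the third 87.9% and 38.5%. Gaps of this kind were thus not limited to the shore.

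The other 4 were of different kinds. The shore at chromosome 19, positions 37876001 to 37877000, had 34 of 36 methylated calls in Bone_1 (94.4%) and 10 of 35 in Bone_2 (28.6%), with an adjusted p of 4.22e-08 by Fisher's exact test, and the next window was also apart, at 61.6% and 19.6%. Next in size, the shore at chromosome 13, positions 37790001 to 37791000, had 86.1% of 36 calls and 27.9% of 43 calls (adjusted p of 1.68e-06 by Fisher's exact test). For these shores on chromosomes 19 and 13, the exact test against the odds ratio of all windows gave adjusted p of 9.94e-05 and 0.00113. Both kept their difference with equal site weights, at 93.5% against 26.3% and 85.2% against 26.3%. In contrast, the shore at chromosome 17, positions 54209001 to 54210000, had 96.2% of 78 calls and 40.2% of 184 calls, but its 4 CpG sites within 179 bp of the edge had 0 calls in Bone_1 and 22 to 25 calls in Bone_2, where they were at most 16.7% methylated. Over its remaining 7 sites Bone_2 lay between 9 methylated of 15 calls and 8 of 9. With equal weights over the sites called in both samples the levels were 96.7% and 75.3%, and the test stratified by CpG site (Mantel-Haenszel) gave an adjusted p of 0.000401, so a smaller difference remained. Likewise, the shore at chromosome 10, positions 50959001 to 50960000, went from 82.9% and 26.3% by summed calls to 43.1% and 31.9% with equal site weights. Its adjusted p in the stratified Mantel-Haenszel test was 0.00769. In Bone_1 its sites from 17 to 98 bp had 0 calls, and those from 151 to 304 bp had 1 unmethylated call each. The 43.1% gave these single calls the weight of outer sites with 9 to 19 calls.

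The largest difference toward Bone_2, chosen for display after its values were seen, was not called in the stratified test. This shore, at chromosome 16, positions 50858001 to 50859000, had 14.9% of 67 calls in Bone_1 and 53.1% of 245 calls in Bone_2 (adjusted p of 1.08e-07 by Fisher's exact test). Its 7 sites from 99 to 385 bp were at 0% in Bone_2 and at most 12.5% in Bone_1, and its 3 outermost sites, in gCGa, tCGa and cCGt, had 1 call each in Bone_1, all methylated, and 36 to 43 calls in Bone_2 at 76.7% to 91.7%. Both samples thus rose along the shore, and the test stratified by CpG site (Mantel-Haenszel) gave an adjusted p of 0.457, with equal-weight levels of 35.2% and 31.6%.

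**Figure D5:**
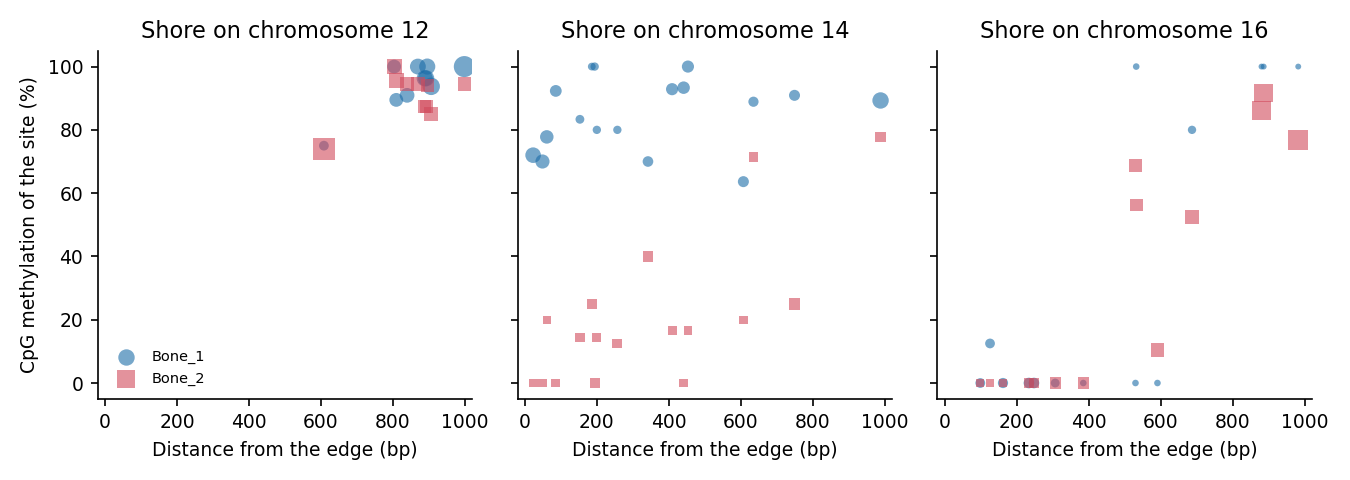
Methylation (%) of each CpG site against its distance from the edge of the dense window (bp) in 3 named shores, for Bone_1 (blue circles) and Bone_2 (red squares), with the area of a point growing with its number of calls. On chromosome 12 all sites are high in both samples, on chromosome 14 all 17 sites are higher in Bone_1, and on chromosome 16 both samples rise along the shore while the large points sit at the outer sites in Bone_2 only.

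The depth of shores set the precision of these levels. Shores had 17.4 calls per CpG site in Bone_1 and 15.5 in Bone_2, near the 17.3 and 15.8 of far windows of equal CpG number. A shore had a median of 164 calls in Bone_1 and 182 in Bone_2, which gives a level of 50% an interval of 7.56 and 7.19 points to either side. The 5% of shores with the fewest calls had at most 37 in Bone_1 and 81 in Bone_2, and 68.3% had at least 100 in both, so the means over shores rest on more reads than any single shore does.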

How the data were processed

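WGBS libraries of 2 bone samples were analysed as 1 group. After trimming, Bismark mapping and removal of duplicate reads, the authors deposited counts of methylated and unmethylated calls for each CpG cytosine and strand, not pooled. The submitters' processing notes name Trim Galore 0.4.5, FastQC 0.11.5, Bowtie2, Bismark 0.19.0 and ARS-UCD1.2. The paper states UMD3.1.1 and earlier versions of Trim Galore, FastQC and Bismark, and the deposited counts name no build. Mapping and duplicate removal can change the depth of CpG-rich DNA, and were not varied here. Spiked lambda DNA was not analysed here.

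Strands were summed per CpG site, and sites into windows of 1 kb. Far windows were weighted to the CpG numbers of the shores. Total calls over all sequences were 582241763 in Bone_1 and 440334436 in Bone_2. Fisher's exact tests and their adjustment ran over all autosomal windows with at least 20 calls in each sample, and were tested on simulated data. Reads carried no molecular identifiers and need not be independent molecules, so intervals (95% Wilson), and the 3 calls taken as the limit after a count of 0, cover counting error only. Named shores are the 5 with the largest difference past an adjusted p of 0.05 with at least 5 CpG sites, and the 5 lowest and 5 highest with at least 10 CpG sites and 100 calls, 1 per dense neighbour. Alternatives varied the density, depth, distance, thresholds, weighting and test, and left out each sample. Shores by gene side, and the gene lists, were planned and not run, because the gene table given here is of ARS-UCD2.0 and no sequence of the counts' build was given. The members and lists were chosen with earlier results of these data known. Tables were built in Python 3.11.15 with pandas 2.3.3, numpy 2.4.6, pyarrow 21.0.0 and numba 0.67.0, tests came from scipy 1.17.1, and figures from matplotlib 3.10.9.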

Additional observations from a re-analysis of the deposited data

Results flagged for a closer look

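The X chromosome lies outside the rule for shores and was looked at in the same way, with 352 windows that would have been shores. A smaller share of them was under 20% methylated: 7 in Bone_1, which is 1.99%, and 17 in Bone_2, which is 4.83%. Among autosomal shores the shares were 13.1% and 12.04%. The X-linked shares were above those of X-linked windows far from dense ones, at 0.168% and 0.301%. The mean level of X-linked shores was 58.6% in Bone_1 and 46.1% in Bone_2, close to the autosomal 59.1% and 48.4%. X-linked far windows averaged 72.7% and 55.6%, a difference of -14.1 and -9.57 percentage points. X-linked shores were thus rarely unmethylated in these female samples, at a mean level like that of the autosomes. The difference between X and autosomes was not tested, since both come from the same 2 libraries.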

How the results depend on the processing

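Of 67 alternative values, 54 kept their direction and stayed near the main value, 13 moved and 0 reversed. Near means within the SD of the main value over the 2 samples, or within a fixed ratio for counts. Leaving out a sample had to pass, because each of 2 samples lies within that SD of their mean. Only differences could reverse, since levels, shares and counts cannot change sign. With dense windows set at 50 CpG sites, the share of shores under 20% was 10.5% and 10291 of 17053 shores (60.3%) differed between the samples. With 80 CpG sites, the share was 15.8%, 2674 of 4807 shores (55.6%) differed and 416 (8.65%) were higher in Bone_2. The main values are 58.2% and 6.89% of 11232 shores, and those of all windows 66.2% and 1.01%. Asking for levels under 10% or 30% gave 5.85% and 20.1%. A difference of at least 20 points left 2901 shores that differed (25.8%, against 36.0% of all windows). Of these, 174 were higher in Bone_2 (1.55% of shores, against 0.258%). The test against the odds ratio of all windows called 3387 (30.2%, against 21.7%). Among alternatives chosen after seeing the data, the test stratified by CpG site left 103 shores higher in Bone_2 (0.917%, against 0.421% of all windows). Another took the outer 500 bp of the 9275 shores with enough calls on both sides of their middle. It gave a level of 65.7% and a difference of -4.01 points from far windows weighted to whole shores. Counts at 50 and 80 CpG sites moved with the number of shores, and the cause of the other moves was not tested. Leaving out either sample gave a level of 48.4% to 59.1%, a difference of -19.2 to -12.8 points, a share under 20% of 12.04% to 13.1%, a level of 60.4% to 75.4% in the second window out, and a gap between shores of methylated and unmethylated dense windows of 19.3 to 26.9 points. With only 1 group, samples could not be paired between groups. The difference of shores from far windows was taken within each sample. Shores with few calls are known least well: at the median depth an interval spans 7.56 points to either side in Bone_1.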
